A study of Mus musculus with 9 samples.

Results

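The MHC class II presentation genes H2-Aa, H2-Ab1, H2-Eb1, H2-DMa, H2-DMb1, H2-DMb2, Cd74, Ciita and Ctss were followed in monocytic myeloid-derived suppressor cells from mouse tumours. These 9 genes were taken by symbol from the 54532 genes of the FPKM table (fragments scaled by gene length and library depth), and all 9 were also in the table of raw counts. Poly-A RNA was sequenced from 9 libraries of cells sorted from tumours of the MC38 line, a mouse colon carcinoma, with 3 libraries from WT mice, 3 from LILRB4+/+ mice and 3 from LILRB4+/+ SCG2-/- mice. The knockout mice therefore carried the LILRB4+/+ genotype as well, and every mouse bore an MC38 tumour. LILRB4 is an inhibitory receptor of myeloid cells, and SCG2 is the secreted protein secretogranin II. The labels do not define the LILRB4+/+ allele, the sorting gate, the strain, the age of the mice, or which mouse gave which library. The p-values therefore cover the variation from library to library alone, part or all of which could be technical. The study's title places the genotypes in the question of how SCG2 and LILRB4 act in the suppressive function of these cells.

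MHC class II molecules carry peptides from endosomes to the cell surface, where CD4+ T cells read them. An alpha and a beta chain assemble with the invariant chain Cd74, which fills the groove until cathepsin S (Ctss) and other proteases trim it to the fragment CLIP. The H2-DM dimer then exchanges CLIP for a peptide, and the H2-O dimer restrains H2-DM. The transactivator Ciita, which is recruited by factors bound to the promoters, switches on the genes of the classical chains, Cd74 and H2-DM. In monocytic cells Ciita is classically induced by interferon-gamma, and the amount of class II is one of the features that separate maturing antigen-presenting cells from immature monocytes. C57BL/6 mice make no working E alpha chain, so in them H2-Eb1 RNA gives a beta chain without its partner.

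Total counts per library were 14501163 to 27219202. The targeted gene Scg2 was at 0 or 1 count in all 9 libraries, so its deletion could not be checked in this RNA. Mouse Lilrb4a was at 47.7 to 138 FPKM in WT, 154 to 274 in LILRB4+/+ and 131 to 157 in knockout libraries. The monocyte markers Ly6c2 (28.6 to 105 FPKM), Csf1r (61.6 to 190) and Itgam (18.1 to 79.1) were present in every library. The neutrophil marker Ly6g was at 0 in 7 of 9, and Cxcr2 and Camp were at 0 in 1 and 3. The other neutrophil markers were found in every library, among them Retnlg (15.2 to 154 FPKM), Csf3r (7.35 to 18.0) and Mmp8 (1.73 to 10.4). Summed T and NK cell markers differed widely, at 88.5 to 116 FPKM in WT replicates 2 and 3 and LILRB4+/+ replicate 2 and 335 to 586 in the other 6 libraries. LILRB4+/+ replicate 2 also had the highest sums of monocyte, macrophage and neutrophil markers. In bulk RNA of this kind, fewer cells of a type and less RNA per cell cannot be told apart.

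Stretches before RefSeq start sites are shown because class II genes are known to share a promoter module (the X1, X2 and Y boxes) through which Ciita acts. Its part in the levels below was not tested. RefSeq promoter entries (build GRCm38.p6) were found for 6 of the 9 genes. H2-Ab1, Cd74 and Ciita had no entry. The letters GATTGG (Y box core), AACNGATG (X1) and TGACGTCA (X2) were searched on both strands in the 250 bases before each start site. They were chosen with these promoters in view. Each line below gives bases 125 to 26 before the RefSeq start site, with matches in capitals:

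H2-Aa: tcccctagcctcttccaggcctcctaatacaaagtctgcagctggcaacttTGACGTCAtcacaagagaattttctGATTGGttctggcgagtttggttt
H2-Eb1: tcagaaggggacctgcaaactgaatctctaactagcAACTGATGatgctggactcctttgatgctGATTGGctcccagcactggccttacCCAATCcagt
H2-DMb2: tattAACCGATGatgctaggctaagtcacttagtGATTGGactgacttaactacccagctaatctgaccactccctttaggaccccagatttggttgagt
H2-Ob: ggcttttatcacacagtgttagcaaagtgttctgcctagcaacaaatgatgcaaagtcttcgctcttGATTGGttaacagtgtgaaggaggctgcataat

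The H2-Aa stretch is chr17:34287849-34287948 on the minus strand. The others are on the plus strand, H2-Eb1 at chr17:34305742-34305841, H2-DMb2 at chr17:34145124-34145223 and H2-Ob, which encodes the beta chain of the H2-O dimer, at chr17:34238780-34238879. GATTGG starts 49 bases before the H2-Aa start site, 60 before H2-Eb1, 62 before H2-DMb1, 91 before H2-DMb2 and 58 before H2-Ob. H2-Eb1 holds it a second time, on the opposite strand as CCAATC, 35 bases before its start. AACNGATG was found in H2-Eb1, H2-DMb1 and H2-DMb2, at 89, 92 and 121 bases before the start, and in Ctss at 207. Of the 3 motifs, H2-Aa has TGACGTCA at 74 bases in addition to GATTGG, and Ctss has only the X1 letters. Among 32851 promoters of the same length, 14.6% held GATTGG, 1.98% AACNGATG, 1.55% TGACGTCA and 0.25% both GATTGG and AACNGATG, the pair that H2-Eb1, H2-DMb1 and H2-DMb2 hold. The stretch before the RefSeq start of H2-DMb1 lies in a GENCODE exon and is not printed. The RefSeq start of H2-DMb2 lies 1942 bases inside the gene as the tables have it. The H2-DMb2 stretch and matches given here thus lie within that gene and were not taken as its promoter. The entries named H2-DMa start 9664 and 12350 bases before the tables' gene, so neither was taken as its promoter. A match is a description of letters, not a measured site.

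The classical chains and Cd74 were among the most abundant transcripts of these bulk libraries, which also held RNA of other cell types. By mean FPKM over the 9 libraries, Cd74 ranked 4 of 22046 protein-coding genes, H2-Eb1 25, H2-Ab1 31 and H2-Aa 53. Ctss ranked 56. H2-DMa and H2-DMb1 followed at 460 and 463, H2-DMb2 at 4348 and Ciita, the regulator, at 8721. The FPKM values are per kilobase of the deposited gene length, so comparisons between genes depend on that length. It was 1637 bases for H2-Ab1 and 1184 for H2-Eb1, beside GENCODE M21 transcripts of 1212 and 1171 bases.

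H2-Aa encodes the alpha chain of the I-A molecule (chromosome 17, 34282744 to 34287827, GRCm38, minus strand). It was at 518, 987 and 700 FPKM in WT replicates 1, 2 and 3, at 758, 654 and 610 in the LILRB4+/+ libraries and at 739, 636 and 467 in the knockout libraries. The WT libraries alone spanned nearly the whole range, and the 3 groups overlapped. Its partner, the I-A beta chain H2-Ab1 (chromosome 17, 34263209 to 34269418, plus strand), was at 763, 1346 and 1075 FPKM in WT, 1044, 964 and 939 in LILRB4+/+ and 996, 858 and 666 in knockout libraries. The order of the WT libraries was the same as for H2-Aa, with replicate 2 highest and replicate 1 lowest. The ratio of H2-Aa to H2-Ab1 FPKM stayed between 0.650 and 0.742 in the 9 libraries.

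H2-Eb1, the I-E beta chain (chromosome 17, 34305877 to 34316199, plus strand), was at 794, 1369 and 1060 FPKM in WT, 1160, 969 and 1027 in LILRB4+/+ and 1272, 963 and 716 in knockout libraries. Again WT replicate 2 was highest and knockout replicate 3 lowest, and the groups overlapped. The partner alpha gene is annotated as the unprocessed pseudogene H2-Ea-ps and was at 0 to 0.27 FPKM, or 0 to 3 counts per library. No library thus held more than the 3 counts that a count of 0 allows. By FPKM, H2-Eb1 was thus close to or above H2-Ab1 in libraries where RNA of its alpha partner was at the limit of detection. H2-Eb1 overlaps the antisense gene Gm20513 (0 to 1.70 FPKM). The libraries kept the strand, but the strand setting of the counting is not given in the sources used here.

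Cd74, the invariant chain (chromosome 18, 60803848 to 60812646, plus strand), was at 2053, 3406 and 2545 FPKM in WT, 2859, 2785 and 2530 in LILRB4+/+ and 3045, 2271 and 1883 in knockout libraries. The 3 LILRB4+/+ libraries lay close together, and the WT libraries reached both below and above them. Cd74 FPKM was 0.898 to 1.08 times the summed FPKM of H2-Aa, H2-Ab1 and H2-Eb1 in every library.

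**Figure D1:**
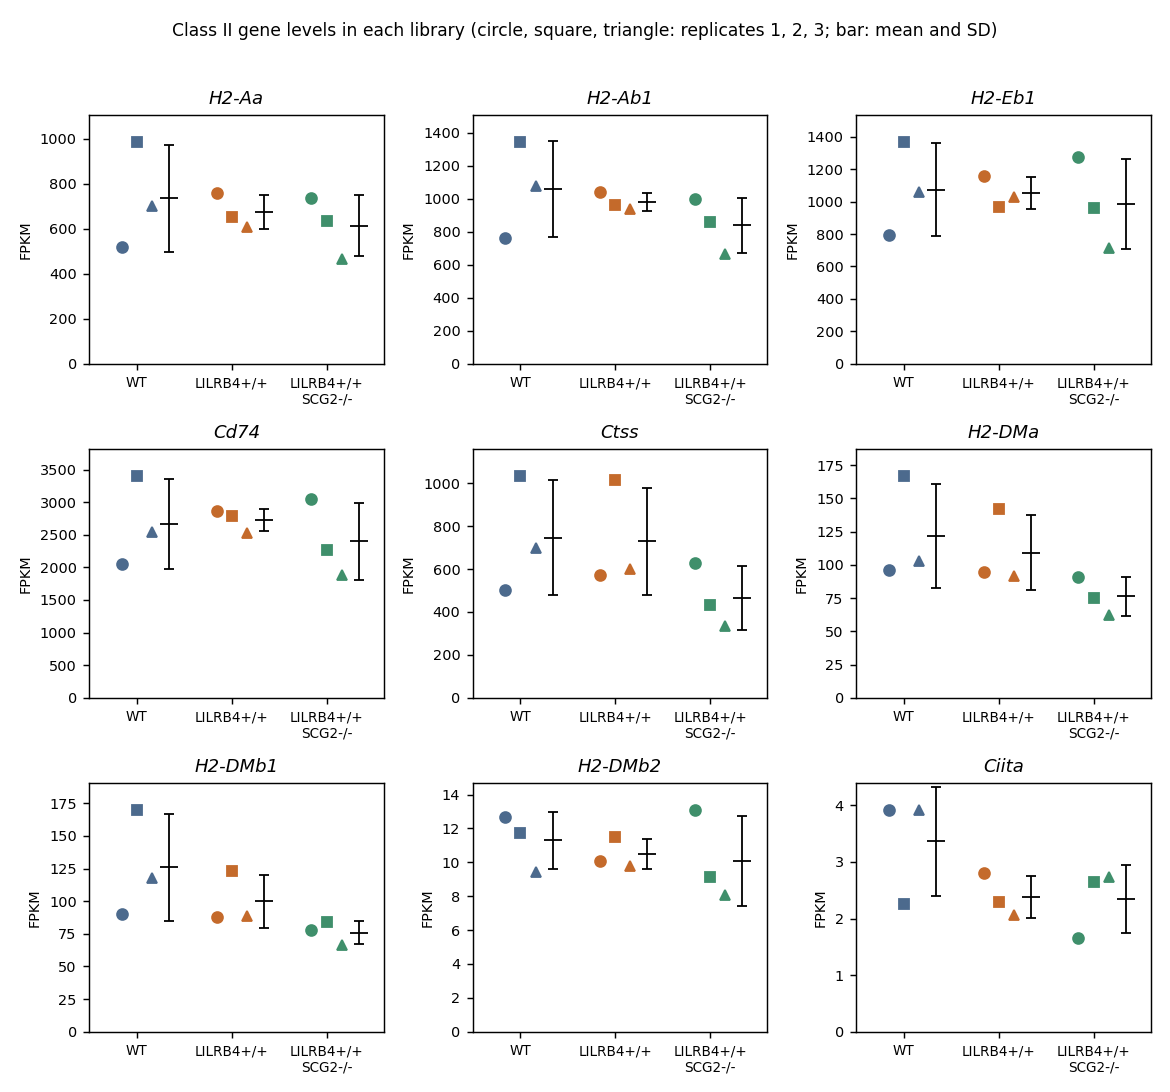
FPKM of the 9 class II genes (vertical axes, each from 0) in WT, LILRB4+/+ and LILRB4+/+ SCG2-/- libraries. Circles, squares and triangles are replicates 1, 2 and 3, and bars show the mean and SD of 3 libraries. H2-DMa and H2-DMb1 are the panels in which the 3 knockout libraries lie below all others (H2-DMa 62.5 to 91.2 FPKM, H2-DMb1 66.6 to 83.7). Of 9877 genes, 10.9% had all knockout values below LILRB4+/+ and 11.5% had them all below WT.

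Ctss, the protease that trims the invariant chain (chromosome 3, 95526786 to 95556403, plus strand), had the widest range of the 9 genes, 3.09 times between its highest and lowest library. It was at 504, 1035 and 698 FPKM in WT, 570, 1016 and 600 in LILRB4+/+ and 628, 433 and 335 in knockout libraries. WT replicate 2 and LILRB4+/+ replicate 2 were high, knockout replicates 2 and 3 were the lowest of all, and knockout replicate 1 lay inside the range of the other groups. Ctss overlaps the pseudogene Hmgb1-ps5 (1.68 to 7.31 FPKM) on the same strand.

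The chains of the peptide editor H2-DM were well below the classical chains, at means over the 9 libraries of 102 FPKM (H2-DMa) and 101 (H2-DMb1) against 674 to 1037 for the chains. H2-DMa, its alpha chain (chromosome 17, 34135182 to 34139101, plus strand), was at 95.9, 167 and 103 FPKM in WT, 94.4, 142 and 91.9 in LILRB4+/+ and 91.2, 75.0 and 62.5 in knockout libraries. H2-DMb1, a beta chain (chromosome 17, 34153072 to 34160230, plus strand), was at 89.9, 170 and 118 FPKM in WT, 88.1, 123 and 88.4 in LILRB4+/+ and 77.6, 83.7 and 66.6 in knockout libraries. For both genes the 3 knockout libraries lay below all 6 others, by a narrow margin at the edge (91.2 against 91.9 FPKM for H2-DMa, 83.7 against 88.1 for H2-DMb1). Of 9877 genes, 10.9% had all knockout values below LILRB4+/+ and 11.5% had them all below WT. The share below both groups at once was not counted.

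H2-DMb2, the second beta gene (chromosome 17, 34143307 to 34151553, plus strand), was at 12.7, 11.7 and 9.43 FPKM in WT, 10.1, 11.5 and 9.79 in LILRB4+/+ and 13.1, 9.15 and 8.05 in knockout libraries. It did not share the high value of H2-DMb1 in WT replicate 2, and its level was 0.0689 to 0.169 times that of H2-DMb1. The transcripts of H2-DMb1 and H2-DMb2 are 94.4% identical over 1255 aligned bases (GENCODE M21), and 27.2% of 50-base windows of H2-DMb1 occur unchanged in H2-DMb2. Reads of these windows could have been assigned to either gene or dropped, so the level of H2-DMb2 in particular is uncertain.

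Ciita, the transactivator (chromosome 16, 10480059 to 10528418, plus strand), had the lowest FPKM of the set. Its counts were 289 to 801 per library on a gene of 9535 bases, beside 226 to 483 for H2-DMb2 on 1710 bases. It was at 3.92, 2.25 and 3.92 FPKM in WT, 2.80, 2.29 and 2.06 in LILRB4+/+ and 1.66, 2.65 and 2.73 in knockout libraries. WT replicates 1 and 3 were above all other libraries, while WT replicate 2, highest for the chains, was among the low ones. Ciita overlaps Dexi on the opposite strand (3.63 to 5.61 FPKM), so its counts hold only under strand-aware counting.

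The first comparison, LILRB4+/+ against WT, addresses what the LILRB4+/+ genotype alone goes with. Counts were tested gene by gene with edgeR's quasi-likelihood test, and p-values were adjusted over 9877 genes with a threshold of 0.05. None of the 9 genes passed, while 2.25% of all genes did (171 higher and 51 lower), and none had an unadjusted p under 0.05, as 22.6% of all genes did. DESeq2, which called 9.36% of all genes, and limma also called 0 of the 9. Cd74 had nearly the same mean in both groups, 2724 ± 173 FPKM (SD, n = 3) in LILRB4+/+ and 2668 ± 685 in WT, a log2 change of 0.003 with a 95% interval from -0.52 to 0.52. H2-Aa, H2-Ab1 and H2-Eb1 had log2 changes of -0.15, -0.14 and -0.06. Ciita had the most negative estimate, at -0.53 (SE 0.26, edgeR adjusted p = 0.249), with means of 2.38 ± 0.379 and 3.36 ± 0.964 FPKM. All 9 genes overlapped between these groups. Their median log2 change was -0.15, beside -0.02 for all genes tested, with 8 estimates negative and 1 positive. Of all genes tested, 5135 had negative estimates and 4742 positive ones.

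The second comparison, LILRB4+/+ SCG2-/- against LILRB4+/+, addresses the loss of SCG2 on that background. None of the 9 genes passed edgeR's test, the background being 0.0% of 9877 genes, and none had an unadjusted p under 0.05, as 11.1% of all genes did. DESeq2, which called 1.89% of all genes, and limma called 0 of the 9 as well, but DESeq2 gave H2-DMb2 no adjusted p here. H2-DMa averaged 76.2 ± 14.4 FPKM (SD, n = 3) in knockout and 109 ± 28.1 in LILRB4+/+ libraries, a log2 change of -0.46 (SE 0.24, edgeR adjusted p = 0.493). H2-DMb1 averaged 76.0 ± 8.66 against 99.9 ± 20.2 FPKM, a log2 change of -0.34 (SE 0.22, adjusted p = 0.597). These were the only 2 members whose knockout values all lay below the LILRB4+/+ values, as did those of 10.9% of the 9877 genes. Without LILRB4+/+ replicate 2 the changes were -0.25 for H2-DMa and -0.18 for H2-DMb1. Ctss had the most negative estimate, -0.59, with a 95% interval from -1.28 to 0.11 and overlapping groups. For the chains and Cd74 the estimates ran from -0.17 to -0.04, and for H2-DMb2 and Ciita they were 0.01 and 0.04. The median of the 9 was -0.13, beside 0.03 for all genes tested.

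The third comparison, LILRB4+/+ SCG2-/- against WT, sets groups side by side that differ in LILRB4 and in SCG2 at the same time. It shares the knockout libraries with the second comparison and the WT libraries with the first, so the 3 sets of changes are not independent. None of the 9 genes passed edgeR's test, against 0.0% of 9877 genes, and none was called by limma or by DESeq2, which called 0.931% of all genes. All 9 estimates were negative, as were 4902 of the 9877, with a median of -0.31 beside 0.00 for all genes tested. The 9 genes share the same libraries, so their signs are not independent. H2-DMb1 had the most negative one, -0.70 (SE 0.22, 95% interval -1.18 to -0.22, edgeR adjusted p = 0.317), with means of 76.0 ± 8.66 FPKM in knockout and 126 ± 40.9 in WT (SD, n = 3). H2-DMa was at -0.65 (SE 0.24, edgeR adjusted p = 0.317), with 76.2 ± 14.4 against 122 ± 39.1 FPKM. These 2 genes were the members with an unadjusted p under 0.05, which 14.6% of the 9877 genes reached, 603 with a lower value and 837 with a higher one. They were also the members whose knockout values all lay below WT, as did those of 11.5% of genes. Without WT replicate 2 their changes were -0.44 and -0.37. Ctss had the second most negative estimate, also -0.65 after rounding, with an interval that reached 0.04, and H2-Aa, H2-Ab1, H2-Eb1 and Cd74 lay between -0.31 and -0.10.

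**Figure D2:**
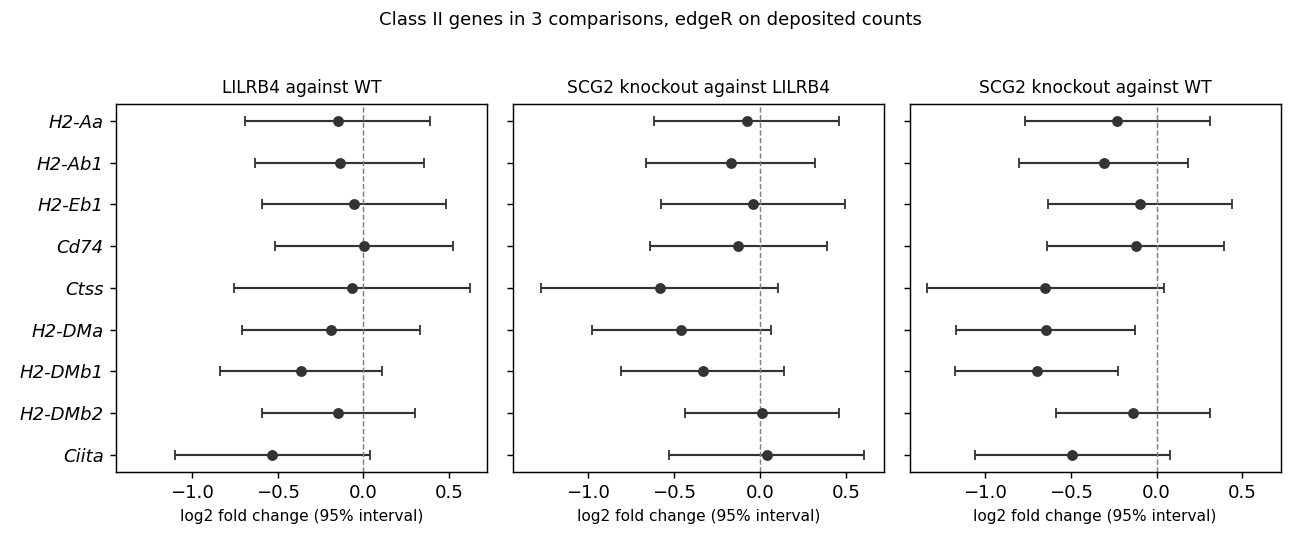
log2 fold changes (horizontal axes) of the 9 class II genes in the 3 comparisons, with 95% intervals from edgeR's fit to all 9 libraries. Every interval crosses 0 except those of H2-DMa and H2-DMb1 for SCG2 knockout against WT, and no adjusted p passed 0.05.

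Summed markers of monocytes and macrophages had their lowest group mean in knockout libraries, as had H2-DMa and H2-DMb1. No relation between them was computed. The 10 monocyte markers summed to 537 to 833 FPKM in knockout, 843 to 1629 in LILRB4+/+ and 757 to 1252 in WT libraries, and no marker of this list was at 0 anywhere. The 10 macrophage markers summed to 491 to 918 FPKM in knockout, 701 to 1365 in LILRB4+/+ and 810 to 1207 in WT libraries, again with none at 0. Knockout replicate 3, lowest for 8 of the 9 genes, was also lowest in both sums. The part of these markers in the H2-DM, Ctss and chain levels was not tested. Other lists differed between groups as well. The 9 neutrophil markers summed to 31.5 to 44.8 FPKM in knockout, 74.5 to 216 in LILRB4+/+ and 35.8 to 69.8 in WT libraries, and the 13 T and NK cell markers to 335 to 586 in knockout, 88.5 to 586 in LILRB4+/+ and 98.3 to 335 in WT libraries. Their part in the class II levels was not tested either. Markers of dendritic cells, which carry much class II, did not have their lowest group mean in knockout libraries. Their sums were 200 to 271 FPKM in knockout, 151 to 252 in LILRB4+/+ and 174 to 189 in WT libraries. Among these markers Flt3, Zbtb46 and Clec9a stayed at or below 3.86 FPKM in every library. Ccr7 was at 25.4 to 140 FPKM, Fscn1 at 58.4 to 80.9 and Itgax at 33.7 to 49.2, and the rest of the list reached at most 8.53 (Clec10a). B cell markers, the other class II-rich type, summed to at most 8.94 FPKM, with Pax5 at or below 0.188.

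**Figure D3:**
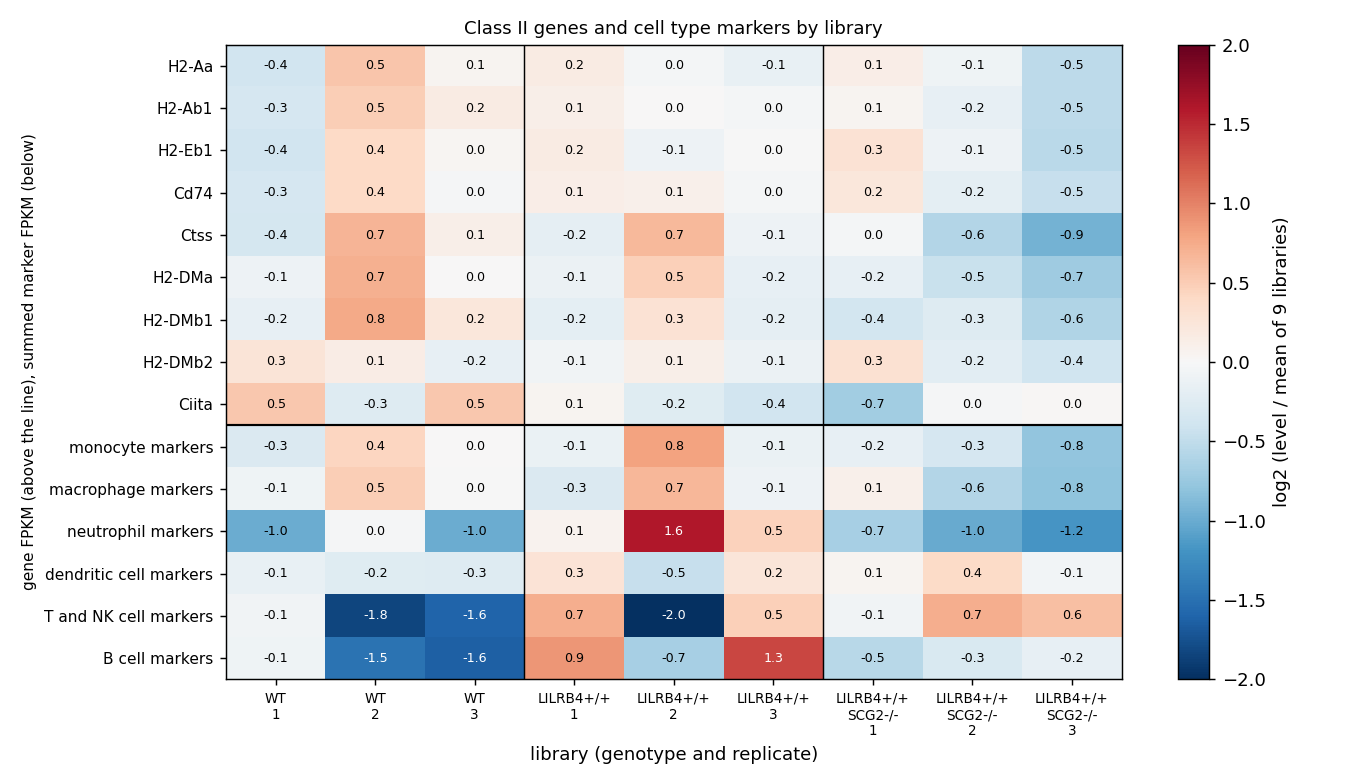
log2 of each level over its mean across the 9 libraries (colour and number in each cell), for the 9 class II genes above the line and summed cell type markers below it, by library. WT replicate 2 is high for the chains, Cd74, Ctss, H2-DMa and H2-DMb1 and low for T and NK cell markers, and knockout replicate 3 is low for the same genes.

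Across libraries, the chains and Cd74 varied together, whereas no such relation was shown for Ciita. The summed FPKM of H2-Aa, H2-Ab1 and H2-Eb1 was 2075, 3702 and 2834 in WT, 2962, 2588 and 2576 in LILRB4+/+ and 3007, 2458 and 1849 in knockout libraries. Of 8 measures set against this sum on the log2 scale over the 9 libraries, Cd74 had Pearson's r = 0.961 (exact permutation p = 7.72e-05, two-sided, Benjamini-Hochberg adjusted over 8 relations 0.000618) and Spearman's rho = 0.983 (adjusted p = 0.000397, exact permutation). Leaving out the 2 libraries farthest from the median sum, WT replicate 2 and knockout replicate 3, gave r = 0.902 for Cd74. The 9 values share their libraries' scaling, and the groups of 3 are too small for a value within each genotype.

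For Ctss, r was 0.757 (exact permutation, adjusted p = 0.0736), and rho was 0.783 (adjusted p = 0.0688, exact permutation), with r falling to 0.319 without the same 2 libraries. For H2-DMa and H2-DMb1, r was 0.711 and 0.690 (exact permutation, adjusted p = 0.0826 for each), rho was 0.533 and 0.400 (adjusted p = 0.197 and 0.333, exact permutation), and without those 2 libraries r was 0.05 and -0.01. The relation of the H2-DM genes to the chains thus rested on WT replicate 2 and knockout replicate 3. H2-DMb2 had r = 0.417 and rho = 0.533. Ciita had r = -0.385 (exact permutation p = 0.307, adjusted 0.307) and rho = -0.367, and r = -0.454 without the 2 libraries, so no relation of regulator RNA to chain RNA was shown. The macrophage and monocyte marker sums had r of 0.621 and 0.619 (exact permutation, adjusted p = 0.0995 for each), which fell to 0.096 and 0.148 without the 2 libraries.

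**Figure D4:**
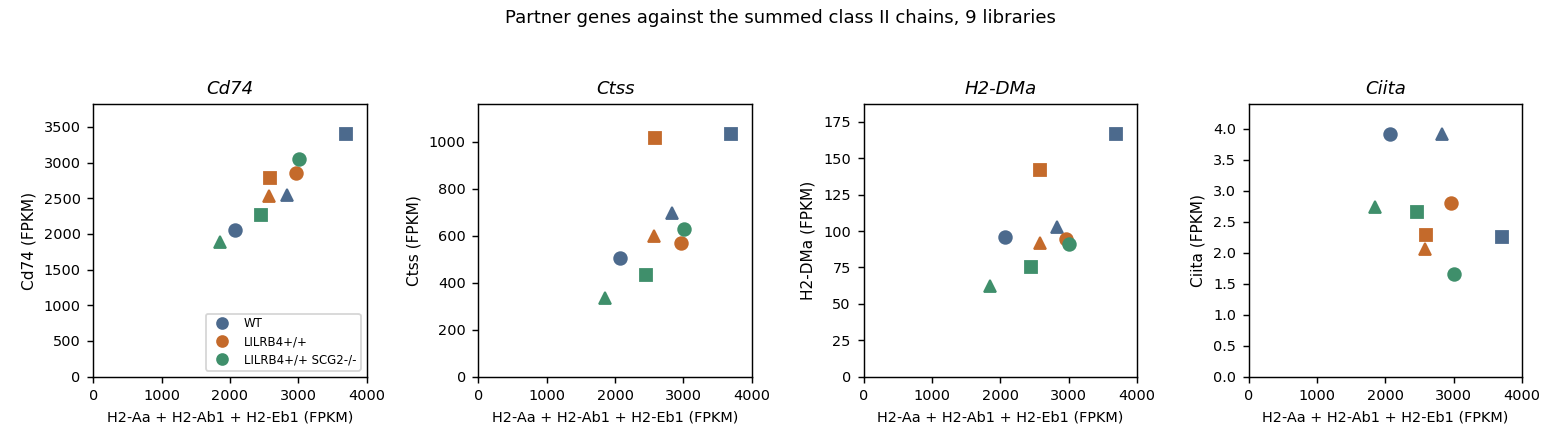
FPKM of Cd74, Ctss, H2-DMa and Ciita (vertical axes) against the summed FPKM of H2-Aa, H2-Ab1 and H2-Eb1 (horizontal axes) in 9 libraries. Colours are genotypes, and circles, squares and triangles are replicates 1, 2 and 3; Cd74 follows the sum from 1883 to 3406 FPKM, and Ciita is lowest, at 1.66 FPKM, in a library with a high sum.

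Ratios within a library, which were chosen after the levels had been seen, put the partners on the scale of the chains. H2-DMa and H2-DMb1 together came to 8.96, 9.11 and 7.78% of the summed chains in WT, 6.16, 10.2 and 7.0% in LILRB4+/+ and 5.61, 6.46 and 6.98% in knockout libraries. The knockout values lay below the WT values (6.35 ± 0.693% against 8.62 ± 0.727%, SD, n = 3, exact permutation p = 0.1, adjusted over 21 ratio tests 0.6), and LILRB4+/+ libraries spanned both. Ctss was 0.189 ± 0.0175 times the chain sum in knockout and 0.256 ± 0.0202 in WT libraries (exact permutation p = 0.1, adjusted 0.6, n = 3). With 3 libraries against 3, 0.1 is the smallest p this two-sided test can give.

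Among 6822 protein-coding genes with a mean of at least 5 FPKM, the 5 most like the mean standardised log2 level of H2-Aa, H2-Ab1, H2-Eb1 and Cd74 over the 9 libraries were Tmem115 (r = 0.952, 9.33 to 16.9 FPKM), Dph3 (0.947), Yipf5 (0.916), Trim27 (0.916) and Smu1 (0.914). These r values are descriptions over 9 libraries. By the same measure 210 genes were more like the index than Ctss (r = 0.781), 413 more than H2-DMa, 624 more than H2-DMb1 and 5926 more than Ciita (r = -0.416).

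Other genes of the pathway were taken from 5 lists with 34 names, of which 33 were found and 29 could be tested on counts. Of the 29, 1 passed edgeR's test in LILRB4+/+ against WT, beside 2.25% of all genes. In each knockout comparison 0 passed, beside 0.0% of all genes. At an unadjusted p under 0.05 there were 5 higher and 1 lower in LILRB4+/+ against WT, 0 and 4 in knockout against LILRB4+/+, and 5 and 4 in knockout against WT. The 6, 4 and 9 of 29 stand beside 22.6, 11.1 and 14.6% of all genes in the same comparisons. DESeq2 called 1, 1 and 0 of the 29, beside 9.36, 1.89 and 0.931% of all genes. In knockout against LILRB4+/+ it gave no adjusted p for H2-Ob, Rfx5, Rfxank and March1.

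The gene that passed was Jak2, a kinase of the interferon-gamma receptor. It was at 46.9, 47.1 and 52.6 FPKM in WT, 119, 73.1 and 87.7 in LILRB4+/+ and 61.4, 86.2 and 62.2 in knockout libraries. The log2 change of Jak2 in LILRB4+/+ against WT was 0.91 (SE 0.21, edgeR adjusted p = 0.0495). The call was kept with DESeq2 (adjusted p = 0.000699) and with edgeR on counts recovered from FPKM without a filter (0.00244). It was lost with the filter on recovered counts (0.059), with limma (0.0817) and on leaving out any library but LILRB4+/+ replicate 2 (8 of 9 cases, highest adjusted p = 0.16), while the log2 change stayed between 0.71 and 1.07 over these leave-outs. Of the 8 genes from the interferon-gamma receptor to Ciita, the median log2 change was 0.28 in LILRB4+/+ against WT, 0.02 in knockout against LILRB4+/+ and 0.25 in knockout against WT.

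Irf1, which binds the interferon-gamma inducible promoter of Ciita, stayed between 87.6 and 120 FPKM in the 9 libraries, with log2 changes of -0.20, 0.28 and 0.08 in the 3 comparisons. Irf8, a factor of monocyte and dendritic cell development, had means of 64.4 ± 12.9 FPKM in knockout and 32.5 ± 10.3 in WT (SD, n = 3), without overlap (log2 change 1.01, edgeR adjusted p = 0.317). The receptor chain Ifngr1 had 124 ± 28.9 against 69.8 ± 10.2 FPKM in the same groups, also without overlap (0.86, adjusted p = 0.317). Knockout values all above WT were seen for 11.9% of genes. Spi1 (PU.1), a myeloid factor that also acts on Ciita, had 38.5 ± 10.9 FPKM in knockout and 63.5 ± 19.3 in LILRB4+/+ libraries (-0.66, adjusted p = 0.439). None of these passed.

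The 7 factors bound at class II promoters had medians of 0.01, 0.06 and 0.03 over the 3 comparisons, and 0 of 7 passed in each. Rfx5, the DNA-binding subunit that holds the X box, was at 1.15 to 1.78 FPKM in WT, 1.58 to 2.81 in LILRB4+/+ and 1.54 to 3.17 in knockout libraries (0.51 and 0.72 against WT, edgeR adjusted p = 0.349 and 0.335). Its subunit partner Rfxank had a change of -0.22 in LILRB4+/+ against WT (adjusted p = 0.453). Of the Y box subunits, Nfyb was at 6.08 to 6.25 FPKM in knockout, 5.34 to 5.80 in LILRB4+/+ and 5.22 to 5.42 in WT libraries. Knockout values all above WT, as for Nfyb, were seen for 11.9% of genes. The share above both other groups at once was not counted. Nfyc had a change of -0.30 in knockout against LILRB4+/+ (edgeR adjusted p = 0.543 for Nfyb and 0.545 for Nfyc in that comparison).

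The other class II chains were low throughout. H2-Oa and H2-Ob, which form the inhibitor of H2-DM, were at 0.71 to 2.82 and 0.94 to 2.11 FPKM, and H2-Eb2 at 0.10 to 0.40. H2-Ob had log2 changes of 0.31, -0.49 and -0.18 in the 3 comparisons (edgeR adjusted p = 0.655, 0.679 and 0.834). H2-Oa is not in the count table and was tested with limma on log2(FPKM + 1), with changes of 0.30, -0.24 and 0.06 (adjusted p = 0.666, 0.874 and 0.945).

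Of the 8 endosomal processing genes tested on counts, 7 had negative estimates in each knockout comparison, and none passed. Negative estimates were seen for 4381 of 9877 genes against LILRB4+/+ and for 4902 against WT. The medians of the 8 were -0.35 against LILRB4+/+ and -0.29 against WT, beside 0.03 and 0.00 for all genes tested. Against LILRB4+/+ the smallest p-values were those of the proteases Lgmn (-0.56, edgeR adjusted p = 0.452) and Ctsh (-0.53, 0.461). Against WT they were those of Cst3, the protease inhibitor cystatin C (-0.59, adjusted p = 0.333), with 217 to 305 FPKM in knockout and 332 to 580 in WT libraries, and Ctsh (-0.57, 0.337). Knockout values all below WT, as for Cst3, were seen for 11.5% of genes. In LILRB4+/+ against WT, Ctsl and Ctsd had changes of -0.32 and 0.29 (adjusted p = 0.386 and 0.482). Ifi30, the lysosomal thiol reductase that unfolds antigens, was tested with limma and had -0.53 against LILRB4+/+ and -0.48 against WT (adjusted p = 0.607 and 0.455).

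The costimulatory ligands Cd80 and Cd86 had the smallest p-values of the 29 pathway genes in knockout against LILRB4+/+. Cd80, a ligand of CD28 and CTLA-4, was at 20.5, 42.7 and 31.5 FPKM in WT, 45.5, 69.6 and 42.9 in LILRB4+/+ and 24.5, 29.6 and 18.9 in knockout libraries. Every LILRB4+/+ value lay above every value of the other groups, at the edge by 42.9 against 42.7 FPKM in WT, a pattern that 4.84% of the 9877 genes showed. For the summed neutrophil markers given above, every LILRB4+/+ value also lay above every value of the other groups, while WT and knockout overlapped. The part of these markers in the Cd80 and Cd86 values was not tested. In knockout against LILRB4+/+ the log2 change of Cd80 was -1.05 (SE 0.27, edgeR adjusted p = 0.256), and DESeq2 called it (adjusted p = 0.0113). In LILRB4+/+ against WT it was 0.71 (adjusted p = 0.155). Cd86, the second such ligand, was at 21.0, 44.8 and 32.1 FPKM in WT, 47.0, 51.3 and 42.6 in LILRB4+/+ and 28.7, 33.4 and 22.5 in knockout libraries, with a change of -0.68 in knockout against LILRB4+/+ (SE 0.23, adjusted p = 0.359) and 0.50 in LILRB4+/+ against WT (adjusted p = 0.232). Cd40, the receptor of T cell help, had 0.46 in LILRB4+/+ against WT (adjusted p = 0.194) and 0.29 in knockout against WT (adjusted p = 0.475). March1, the ligase that removes class II and Cd86 from the surface, was at 1.96, 2.89 and 2.43 FPKM in WT, 1.73, 4.24 and 1.17 in LILRB4+/+ and 1.32, 1.43 and 1.40 in knockout libraries. Its log2 change was -0.78 in knockout against WT (edgeR adjusted p = 0.363), with all knockout values below WT, as in 11.5% of genes. All 5 genes of this list had negative estimates in knockout against LILRB4+/+ (median -0.68), as had 4381 of 9877 genes, and none passed edgeR's test.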

How the data were processed

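The submitters' processing notes name the aligner HISAT2 (2.0.5) and the counter featureCounts (1.5.0-p3). For build, annotation and strand setting no statement was found, but 98.3% of gene identifiers found in GENCODE M21 (GRCm38) had the same start and end. The authors deposited raw counts for 9877 genes and FPKM values for 54532 genes. Scaling the deposited FPKM by gene length and a factor for each library returned whole read numbers (100% of values, tolerance 0.01), and these recovered counts were equal to the deposited counts for all 9 class II genes.

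Deposited counts of all 9 libraries were fitted with edgeR 4.0.16 (TMM, filterByExpr with a minimum count of 10, robust quasi-likelihood, R 4.3.3), with Benjamini-Hochberg adjustment. Genes outside the count table were tested with limma 3.58.1 on log2(FPKM + 1), mean FPKM at least 1. That scale understates changes of low genes. DESeq2 1.42.0, the recovered counts (137, 0 and 0 genes called), other filters and pseudocounts, a replicate block and leaving out each library were alternatives. No library was a duplicate: equal counts in a pair from the same group were seen in 0.466% of genes or fewer. Named genes are the 9, then pathway genes that passed or had 1 of the 2 smallest p-values of their list in a comparison, some fixed by name, and the 5 most alike. Some genes of the lists are not reported here. Members and lists were chosen with earlier results of these data known. The 95% intervals come from edgeR's fit and include the spread between libraries, while the floor of 3 counts covers counting error only.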

Additional observations from a re-analysis of the deposited data

How the results depend on the processing

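None of the 9 class II genes passed the threshold in any comparison under any of the 19 alternatives. DESeq2 gave H2-DMb2 no adjusted p in knockout against LILRB4+/+. The smallest adjusted p among the 9 genes was 0.0576 (H2-DMb1, knockout against WT, recovered counts without a filter). Against 222 genes in all for LILRB4+/+ against WT, DESeq2 called 924, recovered counts 137 (666 without a filter), limma 102 (98 with a pseudocount of 0.1, 0 without a filter), a fit to 2 genotypes 72 and the replicate block 1. Leaving out 1 library gave 0 (WT replicate 2 or WT replicate 3) to 689 (LILRB4+/+ replicate 2), with 32 without WT replicate 1, 8 and 14 without LILRB4+/+ replicates 1 and 3, and 58 without knockout replicate 2. For knockout against LILRB4+/+, DESeq2 called 187, recovered counts without a filter 113, and leave-outs 0 to 1. For knockout against WT these were 92, 119 and 0. Pathway genes called in LILRB4+/+ against WT went from 1 to 0 with recovered counts, limma at all 3 settings, the replicate block and the fit to 2 genotypes, and leave-outs gave 0 to 3, the 3 being Jak2, Jak1 and Ifngr1 without LILRB4+/+ replicate 2. DESeq2 called 1, Cd80, in knockout against LILRB4+/+. The cause of these differences was not tested. With the replicate number as a block, 0 class II genes and 0 pathway genes were called. Same-numbered libraries did not deviate together in every pair (r from -0.544 to 0.66), so the numbers were not taken as pairs.

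Log2 changes near 0 turned sign. H2-Eb1 in LILRB4+/+ against WT was 0.001 with limma at all 3 settings. H2-DMb2 in knockout against LILRB4+/+ was -0.023 with DESeq2's size factors and with DESeq2, -0.024 and -0.035 with recovered counts, -0.068, -0.076 and -0.068 with limma and -0.021 with the replicate block. Ciita there was -0.005 with recovered counts without a filter and -0.027, -0.043 and -0.027 with limma. Leaving out each library moved LILRB4+/+ against WT over -0.141 to 0.228 for Cd74, -0.358 to 0.263 for Ctss, -0.336 to 0.132 for H2-Aa, -0.314 to 0.082 for H2-Ab1, -0.397 to 0.120 for H2-DMa and -0.219 to 0.168 for H2-Eb1. Knockout against LILRB4+/+ ran over -0.138 to 0.215 for Ciita, -0.254 to 0.039 for H2-Aa, -0.246 to 0.103 for H2-DMb2 and -0.290 to 0.097 for H2-Eb1. Knockout against WT ran over -0.335 to 0.073 for Cd74, -0.414 to 0.026 for H2-Aa and -0.329 to 0.098 for H2-Eb1.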
